A study of Mus musculus with 12 samples.

Results

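The genes described here encode the digestive enzymes of the lysosome, the membrane proteins and transcription factors that go with them, and the subunits of the vacuolar ATPase (V-ATPase), the proton pump that acidifies the organelle. They were taken from a list of 48 gene symbols, and 46 of them were matched by name among 11762 genes. Cd63, a membrane protein of late endosomes, and Atp6v0d2, a subunit of the pump's membrane sector, were not analysed here. All 46 passed the filter on low values (at least 1 CPM in at least 3 libraries, where CPM are counts scaled to the same total in every library), so that no member was lost to it. The cells were J774A.1, an established macrophage-like line that the labels give as BALB/c, sequenced as polyadenylated RNA in 4 groups of 3 libraries. Control cells were mock-treated, and the others received microparticles (MP), lipopolysaccharide (LPS, the outer-membrane component of Gram-negative bacteria that activates Toll-like receptor 4) or both (LPS+MP). The replicates are described as biological. The composition of the particles and the dose and duration of the treatments are not stated in any source used here. All groups come from 1 cell line, so p-values measure the spread between cultures of that line.

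Lysosomes break down proteins, glycans and lipids that reach them by endocytosis, phagocytosis and autophagy, and their hydrolases work best at the acid pH that the V-ATPase maintains. The pump has a cytosolic V1 sector, which hydrolyses ATP, and a V0 sector in the membrane, through which protons pass. The sectors can separate and reassemble, and many genes of the system carry a CLEAR element in their promoter, a sequence bound by the transcription factors TFEB and TFE3. In macrophages this machinery digests what the cell has taken up and prepares antigen for presentation.

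The promoters are shown because the list holds both these factors and many genes known as their targets. RefSeq promoter windows (GRCm38.p6, 300 bases, from 250 before to 50 after the start site) were matched by symbol for 38 of the 46 members, with 45 windows. The E-box CACGTG, searched on both strands (it is its own reverse complement), was present for 11 of 38 members (28.9%). It was present for 12.1% of the 8699 tested genes with a window and 8.09% of all 27025 genes with a window. The longer TCACGTGA, which contains the E-box and forms the core of the CLEAR element, was present for 6 of 38 members (15.8%), against 2.3% of the tested genes and 1.12% of all genes with a window. Those 6 were Atp6v0d1, Atp6v1a, Ctsa, Ctsd, Gla and Mcoln1; the shares are a description, and a match is not evidence of binding. The windows printed are those of Ctsl, the member with the largest changes, of Ctsd, the most abundant member, of Gla, which holds 2 copies of the longer motif, and of Atp6v1a, the catalytic subunit of the pump. Each is written 5′ to 3′ on the gene's strand, the minus strand in all 4, with TCACGTGA, or CACGTG where the flanking bases differ, in capitals. The windows are chr13:64370471-64370770, chr7:142387778-142388077, chrX:134600956-134601255 and chr16:44139210-44139509, in this order.
Ctsl: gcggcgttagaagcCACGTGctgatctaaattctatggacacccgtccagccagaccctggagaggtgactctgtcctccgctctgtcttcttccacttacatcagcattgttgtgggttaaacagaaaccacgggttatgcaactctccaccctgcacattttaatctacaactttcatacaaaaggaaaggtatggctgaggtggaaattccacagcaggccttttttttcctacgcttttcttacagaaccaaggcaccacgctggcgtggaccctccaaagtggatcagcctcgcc
Ctsd: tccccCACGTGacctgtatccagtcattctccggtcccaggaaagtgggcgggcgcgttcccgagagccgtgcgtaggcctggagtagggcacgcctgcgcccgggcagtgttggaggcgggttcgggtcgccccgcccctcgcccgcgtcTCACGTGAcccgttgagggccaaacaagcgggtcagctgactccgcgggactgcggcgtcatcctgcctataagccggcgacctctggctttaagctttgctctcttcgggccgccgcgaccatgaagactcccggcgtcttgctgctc
Gla: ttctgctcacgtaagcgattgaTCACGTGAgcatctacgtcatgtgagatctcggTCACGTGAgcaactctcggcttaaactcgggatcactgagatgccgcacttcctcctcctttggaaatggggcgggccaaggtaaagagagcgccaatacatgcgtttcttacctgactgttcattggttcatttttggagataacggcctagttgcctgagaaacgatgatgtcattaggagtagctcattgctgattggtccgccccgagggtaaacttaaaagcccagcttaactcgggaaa
Atp6v1a: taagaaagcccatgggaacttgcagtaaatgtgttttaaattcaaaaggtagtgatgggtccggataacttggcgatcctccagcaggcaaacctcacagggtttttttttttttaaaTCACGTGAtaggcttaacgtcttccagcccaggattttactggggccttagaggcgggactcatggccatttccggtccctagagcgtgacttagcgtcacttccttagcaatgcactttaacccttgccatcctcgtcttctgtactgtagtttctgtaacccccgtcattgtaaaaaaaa
The Ctsl window holds 1 E-box, which begins at position -236 from the start site, and no longer motif. In Ctsd the E-boxes begin at -245 and -98, the latter within the longer motif. Within the longer motifs of Gla the E-boxes begin at -227 and -194, and within that of Atp6v1a at -131. These windows use RefSeq start sites, which lie away from the deposited transcript starts in all 4 printed genes. With both read on GRCm38, the RefSeq start lies 214 bases upstream of the deposited one for Ctsl. The same distance is -211 for Ctsd, -120 for Gla and -446 for Atp6v1a, where negative means downstream. The motifs at -98 in Ctsd and -131 in Atp6v1a thus lie downstream of the deposited transcript start. With LPS, Ctsl rose and the other 3 printed genes fell (values below).

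Of the 12 libraries, the values of each sum to between 998867 and 999273, and the number of reads behind them is unknown. Macrophage markers were abundant as a sum, with 8 of 9 listed genes measured (Adgre1 was not analysed here) and summed values of 5197 to 5746 CPM in control, 5274 to 5594 with MP, 6293 to 7133 with LPS and 4551 to 4716 with LPS+MP. Single markers moved in both directions. Between control and LPS+MP, mean CPM went from 2393 to 982 for Lyz2 and from 15.5 to 0.607 for Mrc1. They went from 477 to 1339 for Cd14 and from 41.9 to 216 for Fcgr1. None of the listed B cell, epithelial or mast cell markers was among the genes analysed. Of the T cell list only Cd28 was measured, at 63.1 to 64.9 CPM in control and 5.77 to 27.1 in the treated libraries, and Pdgfra and S100a8 stayed at or under 10.8 and 4.54 CPM. Osteoclast markers, relevant because osteoclasts share lysosomal enzymes with macrophages, had 4 of 8 genes measured. Their summed values were 753 to 787 CPM in control, 311 to 412 with MP, 1244 to 1690 with LPS and 577 to 751 with LPS+MP. Nearly all of this sum was Mmp9, with means of 731 CPM in control and 1384 with LPS. Acp5 was also higher with LPS, at 0.0155 in control and 3.69 with LPS. Nfatc1 (40.8 and 17.6) and Dcstamp (3.62 and 2.41) were lower with LPS. The sum thus follows 1 gene, and the part of these markers in the results was not tested. LPS replicate 2 stood apart from its group: 339 genes lay more than 1 on the log2 scale from the other LPS libraries, against 1 to 29 genes in any other library. In LPS replicate 2, 9 of the 46 members lay more than 0.5 away and 0 more than 1. Its mitochondrial share was 7.04%, against 5.20% and 5.34% in the other LPS libraries. This share also differed between groups, at 5.24% to 5.88% in control, 6.70% to 7.76% with MP and 3.90% to 4.57% with LPS+MP, and its part in the results was not tested.

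Together the 46 genes made up 3.44% ± 0.208 of all values in control cells (SD, n = 3, as for every mean here), 3.52% ± 0.0918 with MP, 3.18% ± 0.306 with LPS and 3.39% ± 0.112 with LPS+MP. These group means lay close together relative to their SDs, while single members moved by up to 3.90-fold. Values are shares of a library's RNA, so that fewer cells expressing a gene and less of its RNA per cell cannot be told apart. Compared per kilobase of transcript, which was possible for 45 members, the most abundant in control cells were the aspartyl protease cathepsin D (Ctsd, 3175 ± 181 CPM per kb), cathepsin Z (Ctsz, 1222 ± 94.2), cathepsin B (Ctsb, 1175 ± 82.4), the proton-carrying ring subunit Atp6v0c (1027 ± 59.7) and prosaposin (Psap, 937 ± 95.1). Ctsz and Ctsb did not differ by more than their spread, nor did Atp6v0c and Psap. The member left out of this ranking for want of a matched length was Ctsa, at 2347 ± 147 CPM in control. In CPM it lay above Ctsz (1760 ± 136), so its place per kilobase is unknown and could be high. The lowest 4 were the lysosomal receptor Scarb2 (12.8 ± 0.831), the aminopeptidase cathepsin H (Ctsh, 12.4 ± 1.41), the pump subunit Atp6v1d (12.3 ± 0.187) and the factor Tfeb (10.5 ± 0.64). The first 3 of these lay within their spread of each other. Ctsl, the endopeptidase cathepsin L, was in place 12 at 342 ± 23.5 CPM per kb and reached 1336 ± 48.8 with LPS+MP, above the 943 ± 52.1 of Ctsb in the same group.

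**Figure D1:**
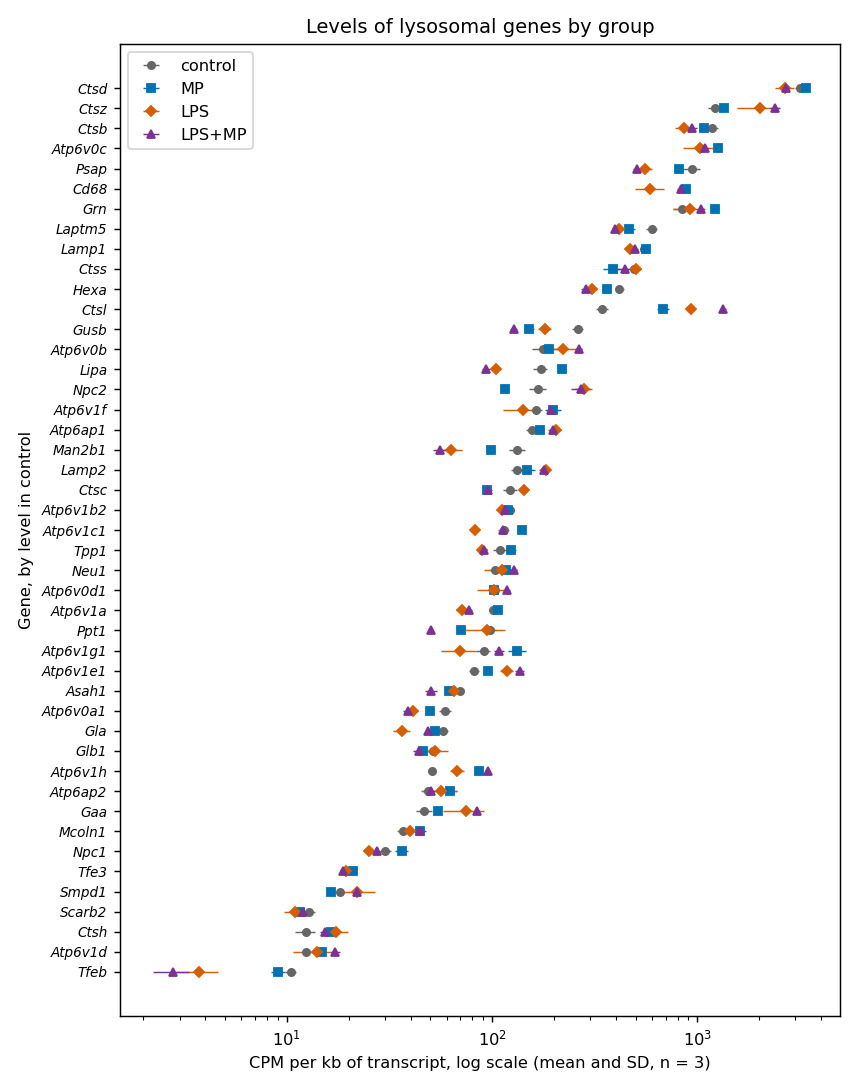
Levels of the 45 members with a matched transcript length, in CPM per kb of transcript on a log axis, ordered by their level in control cells; symbols are group means and bars the SD of 3 libraries. Ctsd leads and Tfeb is lowest in every group, and Ctsl moves from 342 in control to 1336 with LPS+MP.

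In what follows a gene rose or fell where the adjusted p of limma's test, fitted to log2(CPM + 1) of all 11745 tested genes, was under 0.05, and it was called where it also changed by more than 2-fold (over 1 on the log2 scale), the thresholds named in the series description. Changes are given as log2 fold changes. With MP alone no member was called, up or down, where 1.82% and 1.85% of all tested genes were (3.67% in either direction). In the same comparison 13 of 46 members rose and 10 fell, against 20.6% and 18.3% of all tested genes (38.9% together). The median change of the 46 was 0.09, and that of all tested genes 0.02. The test pooled the spread of all groups, which was unequal. The median SD of all tested genes was 0.191 with LPS and 0.0845 to 0.0983 in the other groups. The SE of MP against control thus also holds the LPS spread. Leaving out single libraries, LPS replicate 2 among them, gave 7 to 17 rises and 6 to 13 falls with MP. Under median-ratio scaling the split was 9 up and 11 down, with the small rises of Mcoln1, Tpp1, Atp6v0c and Atp6v1e1 no longer past the test. LPS called 1 member up and 2 down, against 8.3% and 8.05% of all tested genes (16.3% in either direction). With LPS 10 of 46 rose and 19 fell (26.6% and 35.6% of all tested genes, 62.1% together), and 15 and 21 without LPS replicate 2, or 13 and 16 under median-ratio scaling. LPS+MP against control called 1 up and 3 down (8.52% and 12.3% of all tested genes, 20.8% together), and 14 rose and 17 fell (27.7% and 38.6%, 66.3% together). Under median-ratio scaling these became 3 called up and 2 down, and 18 rises and 12 falls. Of all tested genes 20.4% were then called and 65.7% rose or fell in LPS+MP against control. With MP 38.4% rose or fell under this scaling, and with LPS 61.5%. The split of all tested genes by direction was not counted under this scaling, so whether the changed balance is particular to the members is unknown. That scaling moved the median of all tested genes from -0.10 to 0.00 in this comparison, and from -0.14 to -0.01 in LPS+MP against MP. In each of these comparisons the share of members called was below that of all tested genes.

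**Figure D2:**
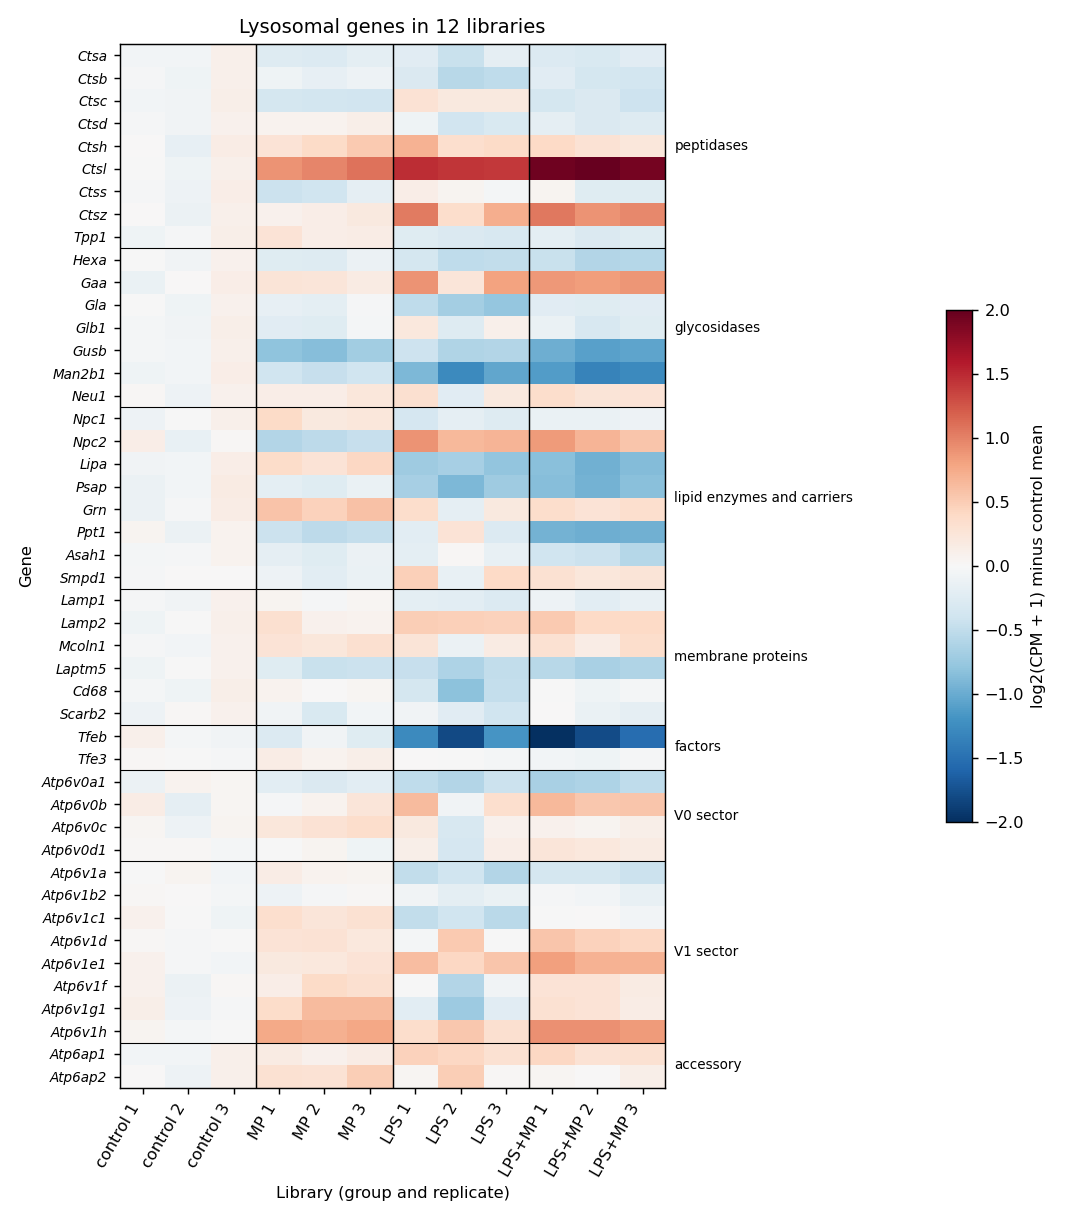
Each of the 46 members (rows, grouped by role) in each of the 12 libraries (columns), as log2(CPM + 1) minus the mean of the 3 control libraries; red is higher and blue lower than control. Ctsl is red in all 9 treated libraries, Tfeb and Man2b1 are blue in all LPS and LPS+MP libraries, and most other members stay within 1 of control.

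The cysteine protease Ctsl (ENSMUSG00000021477, chr13:64363214-64370306, minus strand, in the coordinates of the deposited table) had the largest change against control of all members and rose with every treatment. Its values were 669, 632 and 724 CPM in the control libraries, 1258, 1332 and 1437 with MP, 1882, 1809 and 1790.1 with LPS, and 2602, 2740.1 and 2555 with LPS+MP. No 2 groups overlapped, and the order control, MP, LPS, LPS+MP held in every library. The log2 fold change against control was 0.99 (SE 0.08, adjusted p = 1.63e-07) with MP, just under the 2-fold threshold. With LPS it was 1.44 (SE 0.08, adjusted p = 2.73e-10). With LPS+MP it reached 1.96 (SE 0.08, adjusted p = 3.77e-12), which is 3.90-fold. Adding MP to LPS raised Ctsl by 0.53 (SE 0.08, adjusted p = 9.03e-05), and adding LPS to MP by 0.97 (SE 0.08, adjusted p = 3.14e-08). Quantile normalization put the MP change at 1.20, past the threshold, as did leaving out control replicate 3 (1.04) or MP replicate 1 (1.04).

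The other peptidases changed less, and in both directions. With MP 3 of the 9 rose and 3 fell (20.6% and 18.3% of all tested genes did). With LPS 4 rose and 4 fell (26.6% and 35.6%), and with LPS+MP 3 rose and 5 fell against control (27.7% and 38.6%). Cathepsin C (Ctsc), which activates the granule serine proteases, had 294, 289.7 and 332 CPM in the control libraries, 237, 236 and 233 with MP, 372, 349 and 351 with LPS, and 238, 249 and 229 with LPS+MP. It was higher in the 3 LPS libraries than in any other, while both groups with MP lay below control. It fell with MP (log2 -0.37, SE 0.07, adjusted p = 0.000488), rose with LPS by 0.23 (SE 0.07, adjusted p = 0.00787), and was lower with LPS+MP than with LPS (log2 -0.58, SE 0.07, adjusted p = 8.4e-06). Cathepsin H had 20.0, 17.7 and 22.3 CPM in the control libraries, 24.2, 26.3 and 28.9 with MP, 32.9, 25.3 and 26.2 with LPS, and 26.4, 24.7 and 23.5 with LPS+MP. All treated libraries lay above the highest control library, and Ctsh rose by 0.39 (SE 0.12, adjusted p = 0.0153) with MP and 0.47 (SE 0.12, adjusted p = 0.00253) with LPS, the former not without MP replicate 3 (adjusted p = 0.0657) or control replicate 2 (adjusted p = 0.0784). Ctsz, a carboxypeptidase, had 1772, 1619 and 1889.8 CPM in the control libraries, 1856, 1932 and 2017 with MP, 3595, 2251 and 2909.8 with LPS, and 3633, 3265 and 3412 with LPS+MP. LPS replicate 2 was the lowest of its group, and all LPS and LPS+MP libraries lay above all MP and control libraries. Ctsz rose with LPS by 0.71 (SE 0.13, adjusted p = 0.000223) and with LPS+MP by 0.97 (SE 0.13, adjusted p = 8.45e-06), a change that passed 2-fold under median-ratio scaling (1.08) and quantile normalization (1.10). Cathepsin S (Ctss), which processes the invariant chain of MHC class II, fell with MP (log2 -0.34, SE 0.10, adjusted p = 0.0123), though not without MP replicate 1 or 2 or control replicate 3 (adjusted p = 0.0552 to 0.0692). The small falls of Ctsb with LPS (-0.45) and of Ctsd with LPS (-0.26) were lost under quantile normalization, where both missed the test (adjusted p = 0.274 and 0.766). The fall of Ctsd also missed it under median-ratio scaling (adjusted p = 0.154) and without LPS replicate 2 or 3 or control replicate 1 or 3 (adjusted p = 0.0688 to 0.132). The tripeptidyl peptidase Tpp1 rose slightly with MP (0.19) and fell with LPS (-0.28), and the carboxypeptidase Ctsa fell with MP (-0.24) and with LPS (-0.29). The MP change of Ctsa was -0.09 under quantile normalization (adjusted p = 0.554) and missed the test without any 1 of the MP libraries or control replicate 1 or 3 (adjusted p = 0.0512 to 0.14). That of Tpp1 missed it under median-ratio scaling (adjusted p = 0.135) and without any 1 of the MP libraries or control replicate 1 or 2 (adjusted p = 0.0624 to 0.174).

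Of the 7 glycosidases 3 fell and 0 rose with MP (18.3% and 20.6% of all tested genes did). With LPS 4 fell and 1 rose (35.6% and 26.6%), and with LPS+MP 4 fell and 2 rose against control (38.6% and 27.7%), so that falls outnumbered rises among all tested genes there too. Their summed values were 2760 ± 174 CPM in control, 2252 ± 91.1 with MP, 2106 ± 230 with LPS and 1990 ± 82.9 with LPS+MP, with every treated library below every control library. The lysosomal alpha-mannosidase Man2b1 (ENSMUSG00000005142, chr8:85083269-85098739, plus strand) had 476, 488 and 557 CPM in the control libraries, 382, 366 and 385 with MP, 269.7, 208 and 245 with LPS, and 233, 199 and 209 with LPS+MP. The MP libraries lay between control and the LPS-treated ones, and the LPS and LPS+MP groups overlapped. Man2b1 fell with MP (log2 -0.42, SE 0.09, adjusted p = 0.00251), with LPS (log2 -1.08, SE 0.09, adjusted p = 8.27e-08) and with LPS+MP (log2 -1.24, SE 0.09, adjusted p = 1.06e-08). The LPS change was just short of 2-fold without LPS replicate 2 (-0.97) and, by a narrower margin, under median-ratio scaling.

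Beta-glucuronidase (Gusb, ENSMUSG00000025534, chr5:129989011-130003049, minus strand), which removes glucuronic acid from glycosaminoglycans, had 681, 673 and 754 CPM in the control libraries, 399, 390.3 and 432 with MP, 528, 462 and 467 with LPS, and 358, 330.3 and 339 with LPS+MP. It was lower in each treated group than in control, and the LPS+MP libraries were the lowest. It fell with MP (log2 -0.79, SE 0.07, adjusted p = 1.32e-06), with LPS (log2 -0.53, SE 0.07, adjusted p = 1.62e-05) and with both (log2 -1.03, SE 0.07, adjusted p = 6.21e-09). LPS+MP was also lower than LPS (log2 -0.50, SE 0.07, adjusted p = 0.000102). The call with both treatments rested on small margins, as the change was -0.92 under median-ratio scaling and -0.98 without control replicate 3. Alpha-galactosidase A (Gla), which clears globotriaosylceramide, had 179.9, 172 and 193 CPM in the control libraries, 162, 159 and 179 with MP, 128, 112 and 106 with LPS, and 156, 154 and 155 with LPS+MP. LPS libraries were the lowest, with no overlap with any other group. Gla fell with LPS (log2 -0.65, SE 0.08, adjusted p = 2.92e-06), and was higher with LPS+MP than with LPS by 0.43 (SE 0.08, adjusted p = 0.000631). The acid alpha-glucosidase Gaa, which degrades glycogen, went the other way and rose with LPS by 0.65 (SE 0.13, adjusted p = 0.000362) and with LPS+MP by 0.86 (SE 0.13, adjusted p = 2.06e-05). Its values were 142, 158 and 170.5 CPM in the control libraries, 186, 184 and 176 with MP, 293, 185 and 273 with LPS, and 285, 279 and 290.1 with LPS+MP, where LPS replicate 2 lay near the MP libraries. Hexa, the alpha subunit of beta-hexosaminidase, fell with MP (-0.21), LPS (-0.45) and LPS+MP (-0.54), the first not under quantile normalization (adjusted p = 0.0882) or without MP replicate 1 or 2 or control replicate 1 or 3 (adjusted p = 0.0765 to 0.149). The sialidase Neu1 rose in LPS+MP against control (0.29) and in no other comparison, a change that missed the test under quantile normalization (adjusted p = 0.064) and without LPS+MP replicate 1 or 3 or control replicate 2 (adjusted p = 0.0509 to 0.0976). The beta-galactosidase Glb1 neither rose nor fell in any comparison.

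**Figure D3:**
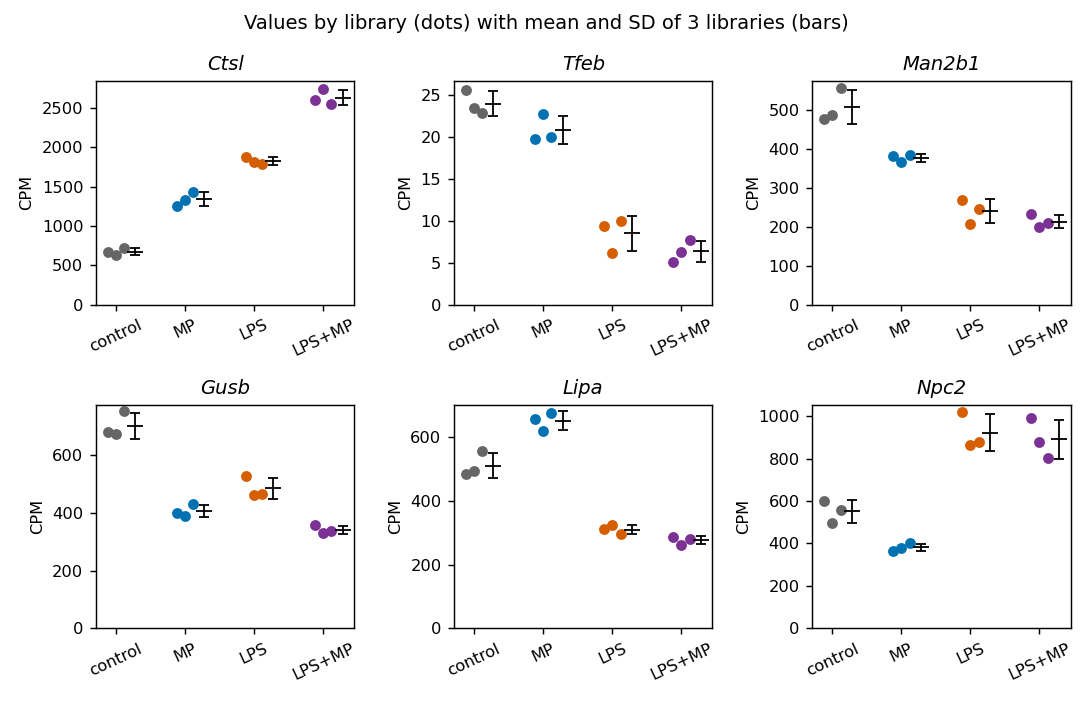
CPM in each library (dots, 3 per group) with the group mean and SD (bars) for the 6 members called in at least 1 comparison; every axis starts at 0. Ctsl climbs from control to LPS+MP, Tfeb and Man2b1 are low in both LPS-treated groups, and Lipa and Npc2 have MP and LPS libraries on opposite sides of control.

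The lipid group holds enzymes, their activators and cholesterol carriers, and its members split. With MP 3 of 8 rose and 2 fell (20.6% and 18.3% of all tested genes did). With LPS 1 rose and 3 fell (26.6% and 35.6%), and with LPS+MP 2 rose and 4 fell against control (27.7% and 38.6%). Lysosomal acid lipase (Lipa, ENSMUSG00000024781, chr19:34492318-34527474, minus strand), which releases cholesterol and fatty acids from cholesteryl esters and triglycerides, had 484, 493 and 557 CPM in the control libraries, 658, 619.8 and 678 with MP, 311, 323 and 295 with LPS, and 286, 262 and 280.2 with LPS+MP. MP libraries lay above all control libraries and LPS libraries below them, and LPS+MP libraries were lower still, with no overlap of LPS+MP and LPS. It rose with MP by 0.35 (SE 0.07, adjusted p = 0.00132) and fell with LPS (log2 -0.72, SE 0.07, adjusted p = 4.27e-07). With LPS+MP it was lower than with MP (log2 -1.24, SE 0.07, adjusted p = 7.01e-10), a called change, while the difference from LPS of -0.17 (SE 0.07, adjusted p = 0.0847) missed the test. Npc2 (ENSMUSG00000021242, chr12:84754560-84773112, minus strand), the soluble protein that hands cholesterol from the lysosomal lumen to the membrane protein Npc1, had the reverse pattern. Its values were 602, 495 and 558 CPM in the control libraries, 366, 381 and 400.2 with MP, 1022, 864 and 881 with LPS, and 990.3, 878 and 805 with LPS+MP. MP libraries were the lowest, control libraries came next, and the overlapping LPS and LPS+MP groups were the highest. It fell with MP (log2 -0.52, SE 0.09, adjusted p = 0.000474), rose with LPS by 0.74 (SE 0.09, adjusted p = 5.95e-06), and was higher with LPS+MP than with MP by 1.21 (SE 0.09, adjusted p = 2.35e-08). Npc1 itself rose with MP (0.26), though not without MP replicate 1 (adjusted p = 0.0556) or control replicate 1 (adjusted p = 0.0578). It fell with LPS (-0.26), though not under median-ratio scaling (-0.18, adjusted p = 0.0605).

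Progranulin (Grn), a precursor of lysosomal granulins, had 1801, 1918 and 2173 CPM in the control libraries, 2901, 2709 and 2952 with MP, 2499.5, 1733 and 2250.3 with LPS, and 2488, 2374 and 2477 with LPS+MP. The MP libraries were above all control libraries, and LPS ranged across them, with replicate 2 the lowest. Grn rose with MP by 0.54 (SE 0.12, adjusted p = 0.0018) and with LPS+MP by 0.32 (SE 0.12, adjusted p = 0.0235). The latter change missed the test under quantile normalization (0.24, adjusted p = 0.165) and without LPS+MP replicate 1 or 3 or control replicate 1 or 2 (adjusted p = 0.0617 to 0.0995). Palmitoyl-protein thioesterase (Ppt1), which removes fatty acids from proteins, had 241, 214 and 244 CPM in the control libraries, 172, 162 and 167 with MP, 201, 283 and 193 with LPS, and 121, 118 and 119 with LPS+MP. The LPS+MP libraries lay close together and below all others, and LPS replicate 2 was the highest library of all. Ppt1 fell with MP (log2 -0.48, SE 0.11, adjusted p = 0.00325), and was lower with LPS+MP than with LPS (log2 -0.89, SE 0.11, adjusted p = 1.78e-05), with -0.72 without LPS replicate 2. Prosaposin (Psap), the precursor of the saposins that present lipids to hydrolases, fell with LPS (log2 -0.76, SE 0.09, adjusted p = 2.74e-06) and with LPS+MP (log2 -0.88, SE 0.09, adjusted p = 4.03e-07). Its change with MP was -0.19 (SE 0.09, adjusted p = 0.0993), past no threshold. The acid ceramidase Asah1 fell with LPS+MP against control (-0.46) and against LPS (-0.36). The acid sphingomyelinase Smpd1 rose in LPS+MP against MP (0.41) and passed no test in the other comparisons.

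Of the 6 measured membrane proteins, 1 rose and 1 fell with MP (20.6% and 18.3% of all tested genes did), and 1 rose and 3 fell with LPS (26.6% and 35.6%). None was called in any comparison, where between 3.67% (MP against control) and 20.8% (LPS+MP against control) of all tested genes were. Laptm5, a lysosomal membrane protein of blood cells, had 748, 783 and 841 CPM in the control libraries, 667, 578 and 586 with MP, 576, 514 and 559 with LPS, and 539, 505 and 521 with LPS+MP. Every treated library lay below every control library, and it fell with MP (log2 -0.37, SE 0.08, adjusted p = 0.00125) and with LPS (log2 -0.52, SE 0.08, adjusted p = 2.38e-05). Cd68 (macrosialin), a heavily glycosylated protein used as a macrophage marker, had 843, 818 and 934 CPM in the control libraries, 906, 866 and 888 with MP, 677, 489 and 619 with LPS, and 857, 816 and 837 with LPS+MP. The LPS libraries were the lowest, and the LPS+MP libraries lay within the range set by control and MP or just below it. It fell with LPS (log2 -0.55, SE 0.10, adjusted p = 0.000166) and was higher with LPS+MP than with LPS by 0.50 (SE 0.10, adjusted p = 0.00101), or by 0.37 without LPS replicate 2. The structural proteins Lamp1 and Lamp2 went apart, with Lamp2 rising with LPS (0.47) and Lamp1 falling slightly (-0.23), the latter not under median-ratio scaling (adjusted p = 0.0924) or without control replicate 3 (adjusted p = 0.0511). The calcium channel Mcoln1 rose with MP (0.28) and with LPS+MP (0.27). The first missed the test under median-ratio scaling (adjusted p = 0.055) and without MP replicate 1 or 3 or control replicate 1 or 2 (adjusted p = 0.0693 to 0.0972), the second without LPS+MP replicate 1 or 3 or control replicate 1 or 2 (adjusted p = 0.0537 to 0.0764). Scarb2, the receptor that carries beta-glucocerebrosidase, neither rose nor fell in any comparison.

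The transcription factor Tfeb (ENSMUSG00000023990, chr17:47737030-47792419, plus strand) was the member that fell the most. Its values were 25.7, 23.4 and 22.9 CPM in the control libraries, 19.8, 22.8 and 20.0 with MP, 9.36, 6.14 and 10.0 with LPS, and 5.15, 6.27 and 7.69 with LPS+MP. All 6 LPS-treated libraries lay below all 6 others, with LPS and LPS+MP overlapping. It fell with LPS (log2 -1.42, SE 0.16, adjusted p = 1.69e-06) and with LPS+MP (log2 -1.78, SE 0.16, adjusted p = 9.63e-08), and was lower with LPS+MP than with MP (log2 -1.58, SE 0.16, adjusted p = 5.96e-07). The change with MP alone was -0.20 (SE 0.16, adjusted p = 0.362) and that of LPS+MP against LPS -0.36 (SE 0.16, adjusted p = 0.0983). Tfe3, the other factor, stayed near its control level of 19.5 ± 0.369 CPM per kb, at 21.1 ± 0.561 with MP, 19.3 ± 0.373 with LPS and 18.8 ± 0.411 with LPS+MP. Its one change past the test was LPS+MP against MP (-0.17), which was lost under median-ratio scaling (adjusted p = 0.808) and quantile normalization (adjusted p = 0.177). Tfeb and Tfe3 were measured as RNA, and their nuclear location, by which they are mainly controlled, was not measured.

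Several genes of the V1 sector of the proton pump were higher with MP, both without and with LPS. Its 8 members summed to 1493, 1443 and 1407 CPM in control libraries and 1664, 1690 and 1714 with MP. They summed to 1317, 1276 and 1267 CPM with LPS and 1602, 1575 and 1495 with LPS+MP. All 3 MP libraries lay above all control libraries, and all 3 LPS+MP libraries above all LPS libraries, while the LPS libraries were below control. With MP alone 4 of 8 rose (Atp6v1c1, Atp6v1e1, Atp6v1g1 and Atp6v1h) and 0 fell (20.6% and 18.3% of all tested genes did). The median change was 0.27 for the 8 against 0.02 for all tested genes. Under median-ratio scaling 3 rose, as Atp6v1e1 missed the test (adjusted p = 0.0501). It also missed it without MP replicate 2 or 3 or control replicate 2 or 3 (adjusted p = 0.0599 to 0.0913). In LPS+MP against LPS 6 of 8 rose and 0 fell (13% and 22.2% of all tested genes did, 35.2% together), with a median of 0.38 against -0.05 for all tested genes. This count was also 6 and 0 under quantile normalization, under median-ratio scaling and without LPS replicate 2, although in the last of these Atp6v1e1 missed the test (0.15, adjusted p = 0.0664). In other settings both Atp6v1d and Atp6v1e1 missed it. These were the fit of the compared groups alone (adjusted p = 0.152 and 0.11) and that without the variance trend (adjusted p = 0.074 and 0.0623). Leaving out any 1 of the LPS+MP libraries also took both out (adjusted p = 0.052 to 0.151). No V1 member was called in LPS+MP against LPS, where 0.63% of all tested genes were called up and 3.89% down (4.52% together). With LPS 2 of 8 rose (Atp6v1e1 and Atp6v1h) and 3 fell (Atp6v1a, Atp6v1c1 and Atp6v1g1), with a median of -0.18. Of all tested genes 26.6% rose and 35.6% fell with LPS.

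Atp6v1h, the regulatory subunit H, which couples ATP hydrolysis to proton transport, had the largest change of the V1 genes with MP alone. Its values were 108, 101 and 104 CPM in the control libraries, 177, 172 and 179 with MP, 133, 152 and 131 with LPS, and 197, 198 and 189.8 with LPS+MP. No treated library reached down to control, and the LPS libraries lay between control and both groups with MP. It rose by 0.75 (SE 0.07, adjusted p = 7.95e-07) with MP, by 0.40 (SE 0.07, adjusted p = 9.59e-05) with LPS and by 0.90 (SE 0.07, adjusted p = 1.06e-08) with LPS+MP, the last passing 2-fold under median-ratio scaling (1.01). Adding MP to LPS raised it by 0.49 (SE 0.07, adjusted p = 4.7e-05).

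Atp6v1g1, a subunit of the pump's peripheral stalks, had 112, 96.2 and 101 CPM in the control libraries, 133, 159.6 and 159 with MP, 88.2, 61.7 and 87.7 with LPS, and 127, 124 and 114 with LPS+MP. LPS libraries were the lowest, with replicate 2 lower than the other 2, and MP libraries the highest. It rose with MP by 0.54 (SE 0.12, adjusted p = 0.00231), fell with LPS (log2 -0.39, SE 0.12, adjusted p = 0.0105) but not without control replicate 1 (adjusted p = 0.0528), and was higher with LPS+MP than with LPS by 0.64 (SE 0.12, adjusted p = 0.000823), or by 0.47 without LPS replicate 2. Atp6v1c1, which joins the stalks to the membrane sector, had 251, 234 and 223 CPM in the control libraries, 296, 280.4 and 293 with MP, 168, 179.6 and 163 with LPS, and 235, 238 and 226 with LPS+MP. LPS+MP libraries overlapped with control, and LPS libraries lay below both. It rose with MP by 0.30 (SE 0.07, adjusted p = 0.00234), fell with LPS (log2 -0.47, SE 0.07, adjusted p = 1.55e-05), and was higher with LPS+MP than with LPS by 0.45 (SE 0.07, adjusted p = 7.93e-05). Atp6v1e1, another stalk subunit, had 113, 105 and 103 CPM in the control libraries, 122, 124 and 129 with MP, 164, 142 and 158 with LPS, and 189, 174 and 173 with LPS+MP. It was the one V1 gene that rose in all 5 pairwise comparisons, by 0.22 with MP, 0.53 with LPS and 0.74 with both against control. The small change of LPS+MP against LPS (0.21) missed the test when LPS replicate 2 or any of the 3 LPS+MP libraries was left out.

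With all libraries in the fit, the 2 subunits that form the catalytic hexamer passed the test in neither MP comparison. Without LPS replicate 2, Atp6v1a or Atp6v1b2 was among the V1 genes that rose in LPS+MP against LPS. The remaining LPS libraries of Atp6v1a (279 and 259.8 CPM) lay below all its LPS+MP libraries. Those of Atp6v1b2 (327 and 314) lay within its LPS+MP range (311 to 339). Atp6v1a, which binds and hydrolyses ATP, had 391, 408 and 377 CPM in the control libraries, 434, 409.8 and 406 with MP, 279, 298 and 259.8 with LPS, and 307, 306 and 291 with LPS+MP, and MP libraries overlapped with control. It fell with LPS (log2 -0.49, SE 0.07, adjusted p = 1.19e-05) and with LPS+MP (log2 -0.38, SE 0.07, adjusted p = 0.000135), and its change with MP was 0.09 (SE 0.07, adjusted p = 0.319). Atp6v1b2, the non-catalytic partner, passed the test in no comparison and ranged from 302 to 351 CPM over all libraries. The rotor subunit Atp6v1d and the rotor-associated Atp6v1f rose in LPS+MP against LPS, by 0.31 (SE 0.12, adjusted p = 0.0479) and 0.47 (SE 0.12, adjusted p = 0.00838). For Atp6v1d the LPS and LPS+MP groups overlapped, since LPS replicate 2 was at 65.4 CPM and the other LPS libraries were at 43.9 and 45.2. Without LPS replicate 2 these changes were 0.49 and 0.28, both past the test, while Atp6v1d missed it when any other LPS or LPS+MP library was left out.

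**Figure D4:**
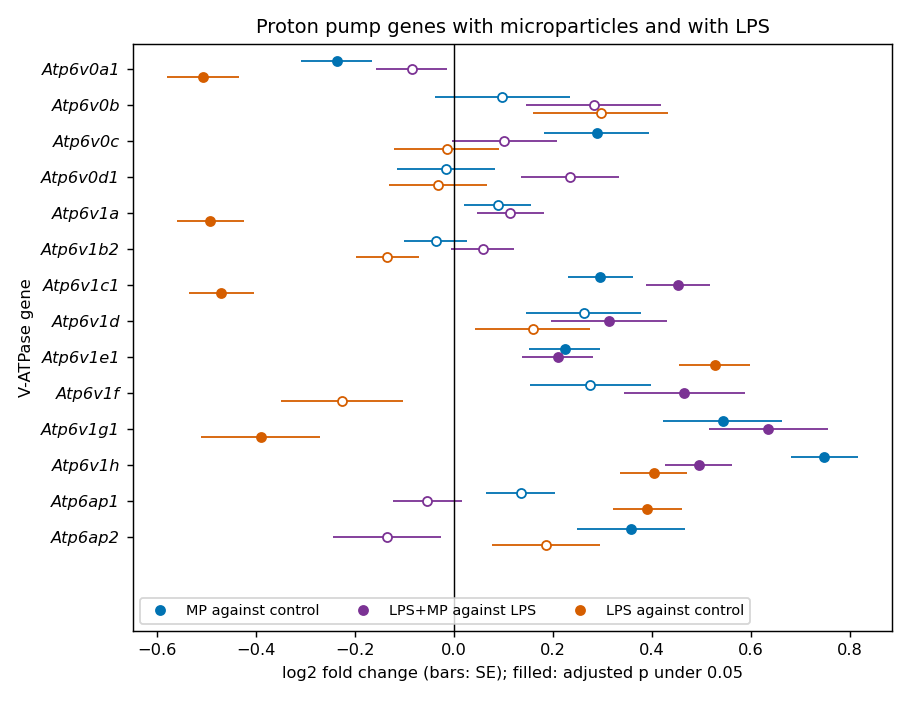
Log2 fold changes of the 14 measured V-ATPase genes (points; bars are the SE from limma) for both MP comparisons, without and with LPS, and for LPS alone; filled points have an adjusted p under 0.05. V1 genes from Atp6v1c1 to Atp6v1h lie right of 0 for both MP comparisons, while Atp6v1a, Atp6v1c1 and Atp6v1g1 lie left of 0 for LPS.

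Of the 4 measured members of the membrane sector V0, 1 rose and 1 fell with MP (20.6% and 18.3% of all tested genes did). With LPS 0 rose and 1 fell (26.6% and 35.6%), and 0 moved past the test in LPS+MP against LPS (35.2%). Atp6v0c, a ring subunit that carries protons, had 1251, 1134 and 1261 CPM in the control libraries, 1414, 1491 and 1548 with MP, 1383, 975 and 1288 with LPS, and 1292, 1254 and 1324 with LPS+MP. MP libraries lay above the others, and LPS replicate 2 was the lowest of all. It rose with MP by 0.29 (SE 0.11, adjusted p = 0.0424), a change that missed the test under median-ratio scaling (adjusted p = 0.0694) and when any single control or MP library was left out. Atp6v0b, another ring subunit, had 196, 155 and 180.0 CPM in the control libraries, 173, 186 and 209 with MP, 273, 167 and 222 with LPS, and 276, 256 and 259 with LPS+MP. LPS+MP libraries were above all control and MP libraries, and it rose in LPS+MP against control by 0.58 (SE 0.14, adjusted p = 0.00156). Its change in LPS+MP against LPS was 0.28 (SE 0.14, adjusted p = 0.122). The large subunit Atp6v0a1, whose isoforms direct the pump to different membranes, fell with MP (-0.24), LPS (-0.51) and LPS+MP (-0.59), the first not without MP replicate 2 or control replicate 2 or 3 (adjusted p = 0.0665 to 0.0771). Another isoform of this subunit that is no member, Tcirg1, was more abundant in control cells, at 265 ± 17.2 against 58.8 ± 3.87 CPM per kb. Tcirg1 had 713 ± 46.3 CPM in control, 858 ± 79.2 with MP, 1002 ± 166 with LPS and 1296 ± 30.5 with LPS+MP. It rose with LPS (0.48, adjusted p = 0.00116) and LPS+MP (0.86, adjusted p = 3.43e-06), and its change with MP was 0.26 (adjusted p = 0.0618). Unlike the 4 V0 members, Tcirg1 also rose in LPS+MP against LPS (0.39, adjusted p = 0.0115), with no overlap of these groups. Atp6v0d1, which links the sectors, passed the test in no comparison. Of the 2 accessory proteins, Atp6ap1 rose with LPS (0.39) and with LPS+MP (0.34), while Atp6ap2, also known as the prorenin receptor, rose with MP. The values of Atp6ap2 were 113, 105 and 121 CPM in the control libraries, 139, 138 and 159 with MP, 117, 160.2 and 115 with LPS, and 117, 113 and 122 with LPS+MP. MP libraries lay above all control libraries, and LPS replicate 2 was the highest library of all. Its change with MP was 0.36 (SE 0.11, adjusted p = 0.0174), which missed the test without MP replicate 3 (adjusted p = 0.0781) or control replicate 2 (adjusted p = 0.0777), and in LPS+MP against LPS it was -0.13 (SE 0.11, adjusted p = 0.364).

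The MP effect could be set side by side without and with LPS, since MP against control and LPS+MP against LPS share no library. In LPS+MP against LPS no member was called (4.52% of all tested genes were), and 9 of 46 rose and 4 fell, against 13% and 22.2% of all tested genes. Across both comparisons 5 members rose in both (Ctsl, Atp6v1c1, Atp6v1e1, Atp6v1g1 and Atp6v1h), 3 fell in both (Ctsc, Gusb and Ppt1), 0 went in opposite directions past the test in each, and 18 passed the test in neither. The same split was not counted over all tested genes, so whether it is particular to the members is unknown. For the 5 the changes without and with LPS were 0.99 and 0.53 for Ctsl, 0.75 and 0.49 for Atp6v1h, and 0.54 and 0.64 for Atp6v1g1. They were 0.30 and 0.45 for Atp6v1c1, and 0.22 and 0.21 for Atp6v1e1, each of the latter missing the test under some alternatives.

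Whether the MP effect itself differed with LPS was tested by the interaction, the change of LPS+MP against LPS minus that of MP against control. No member passed it at 2-fold, where 1.02% of all tested genes were called up and 3.68% down (4.7% together), and 3 were up and 4 down at an adjusted p under 0.05, against 6.45% and 15.5% of all tested genes (22% together). On the log2 scale, which compares ratios, the MP effect was weaker with LPS for Ctsl, with a difference of -0.46 (SE 0.11, adjusted p = 0.00675). In CPM the rise of its mean with MP was larger in LPS-treated cells (1827 to 2632) than without LPS (675 to 1342). For Lipa, which MP raised in unstimulated cells, the difference was -0.52 (SE 0.10, adjusted p = 0.00202). Ctsh had -0.55 (SE 0.16, adjusted p = 0.0253) and Atp6ap2 -0.49 (SE 0.15, adjusted p = 0.0333), and both had risen with MP alone. The difference was positive for Gla at 0.55 (SE 0.11, adjusted p = 0.00236), whose fall with LPS was smaller in the presence of MP, and for Cd68 at 0.47 (SE 0.14, adjusted p = 0.0253). For Npc2, which MP lowered in unstimulated cells and not in LPS-treated ones, it was 0.47 (SE 0.13, adjusted p = 0.0196). Ctsl, Lipa and Gla passed this test under every alternative run, while the others missed it under some scalings or without single libraries. No V1 member passed it.

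**Figure D5:**
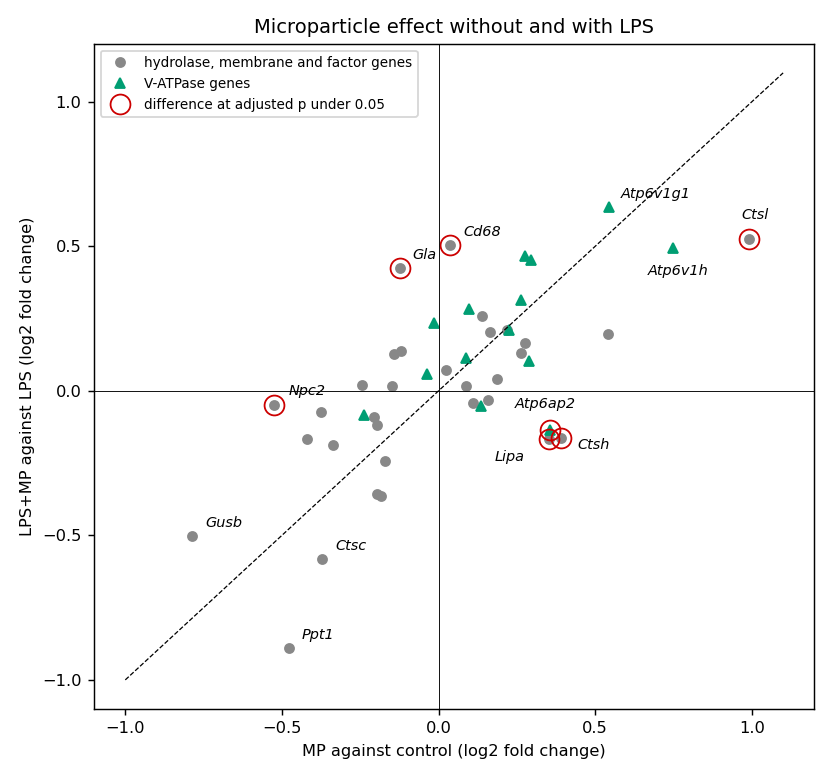
Log2 fold change of each of the 46 members for MP against control (horizontal) and LPS+MP against LPS (vertical), with the V-ATPase genes as triangles; the dashed line marks equal change, and red circles mark the 7 members whose interaction has an adjusted p under 0.05. Ctsl lies below the line, Gla and Cd68 above it, and Gusb, Ctsc and Ppt1 are low on both axes.

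LPS+MP against MP, the effect of LPS in cells that also received MP, called Npc2 up and Lipa and Tfeb down, where 5.71% and 7.88% of all tested genes were called (13.6% together). In it 9 of 46 members rose and 19 fell (19% and 36.6% of all tested genes, 55.6% together). Under median-ratio scaling the called members were 2 up, with Ctsl at 1.12 joining Npc2, and 2 down, and the split of rises and falls turned to 14 and 9. Of all tested genes 13.1% were called and 51.9% rose or fell under that scaling, and their split by direction was not counted. The balance of rises and falls in this comparison thus depended on the scaling, whereas Npc2, Lipa and Tfeb were called as deposited, under median-ratio scaling and under quantile normalization.

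Related genes of the organelle, taken from lists that hold no member, gave further values. The shares of all tested genes to set beside their counts are 20.6% up and 18.3% down with MP, 26.6% and 35.6% with LPS, and 13% and 22.2% in LPS+MP against LPS. Of 30 measured further lysosomal hydrolases 7 rose and 7 fell with MP, 9 rose and 11 fell with LPS, and 2 rose and 13 fell in LPS+MP against LPS. Arylsulfatase B (Arsb), which desulfates dermatan and chondroitin sulfate, fell from 194 ± 12.6 CPM in control to 57.2 ± 4.28 with MP, 27.0 ± 5.76 with LPS and 30.5 ± 3.96 with LPS+MP. Its log2 change was -1.75 (SE 0.13, adjusted p = 1.15e-07) with MP and -2.82 (SE 0.13, adjusted p = 5e-11) with LPS, and its interaction was called at 1.93 (SE 0.19, adjusted p = 4.22e-06). The asparaginyl endopeptidase legumain (Lgmn) was at 629 ± 43.3 CPM in control, 433 ± 17.6 with MP, 287 ± 6.55 with LPS and 206 ± 7.67 with LPS+MP, called down with LPS (-1.13) and LPS+MP (-1.60). The beta-mannosidase Manba was called down with LPS+MP (-1.16) and the acid phosphatase Acp2 up with LPS (1.02). The heparan sulfamidase Sgsh and galactosylceramidase Galc were called down with LPS (-1.04 and -1.07) and with LPS+MP against control (-1.67 and -1.55). The tartrate-resistant phosphatase Acp5 was near 0 in control, at 0.0155 ± 0.0137 CPM, and reached 3.69 ± 0.452 with LPS and 1.77 ± 0.0833 with LPS+MP. Rnaset2b was called up with MP (1.23) and LPS (1.76), but it has a near-identical copy, Rnaset2a, between which reads could be split, so its values are uncertain.

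Of 14 measured further pump and assembly genes 1 rose and 2 fell with MP, none called (3.67% of all tested genes were), and 5 rose and 4 fell with LPS. Dmxl2, a component of the complex that reassembles the pump's sectors, rose from 17.4 ± 1.85 CPM in control to 65.8 ± 5.76 with LPS and 55.5 ± 4.49 with LPS+MP, a log2 change of 1.86 and 1.62. Ccdc115 and Vma21, which assist assembly of the V0 sector in the endoplasmic reticulum, were called down with LPS+MP (-1.36 and -1.12), Ccdc115 also with LPS (-1.14). Of 31 further membrane proteins and transporters, 8 rose and 6 fell with MP and 14 rose and 7 fell with LPS. The cation channel Tpcn1 was called down with MP (-1.34), LPS (-1.22) and LPS+MP (-2.04), from 83.8 ± 1.78 CPM in control to 19.6 ± 0.713 with LPS+MP. The peptide transporter Slc15a3 rose from 722 ± 31.5 CPM to 2101 ± 350.2 with LPS and 2406 ± 21.2 with LPS+MP, and the metal transporter Slc11a1 was called up with LPS (1.31).

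Of 16 genes of lysosome damage and repair 7 rose and 1 fell with MP (20.6% and 18.3% of all tested genes), and 6 rose and 4 fell with LPS (26.6% and 35.6%). In LPS+MP against LPS 7 rose and 0 fell (13% and 22.2%). None was called with MP or in LPS+MP against LPS, where 3.67% and 4.52% of all tested genes were. The galectins that bind exposed glycans of damaged lysosomes moved apart with LPS. Lgals9 (2.18) and Lgals8 (1.14) were called up, and Lgals3, which was at 911 ± 64.0 CPM in control and 248 ± 36.4 with LPS, was called down (-1.88). Of 18 genes that sort lysosomal enzymes 2 rose and 2 fell with MP and 4 rose and 4 fell with LPS, with the adaptor Gga2 called down (-1.05). Of 22 genes that control lysosomal gene expression 4 rose and 3 fell with MP and 2 rose and 10 fell with LPS. None was called with MP or with LPS, where 3.67% and 16.3% of all tested genes were.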

How the data were processed

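RNA-seq of polyadenylated RNA was prepared with a strand-marking kit and 16 PCR cycles, per the labels' protocols. Per the submitters' processing notes, the tools were TopHat2 2.1.1, HTSeq, edgeR, DESeq2, Trimmomatic 0.36 and FastQC 11.5, with no order given. No source used here gives the genome build or the strand setting of the counting. Of 11655 matched transcripts, 85.4% lie within 2000 bases of GENCODE M21 (GRCm38) at both ends. The deposited columns are headed RPKM per the file headers, but each sums to between 998867 and 999273 and they match the authors' deposited mean log2 CPM without a length term (SD of the difference 0.2, against 0.988 for RPKM), so they were read as CPM. Whole reads could not be recovered from these values in every library, so no count test was run and the depth, hence counting error, is unknown.

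From these CPM, limma 3.58.1 in R 4.3.3 was fitted to log2(CPM + 1) of all 12 libraries with group means and a trended variance, over 11745 genes with at least 1 CPM in at least 3 libraries (17 removed), with Benjamini-Hochberg adjustment over all of them. Fold changes are on this scale, which understates changes of low genes. The test was planned for RPKM values and applied unchanged; its script was tested on simulated data. CPM per kb used the matched transcript's length. Figures were drawn with matplotlib 3.10.9 in Python 3.11.15.

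Alternatives were median-ratio scaling, a replicate block, quantile normalization, a pseudocount of 0.1, a minimum of 5 CPM or none, fits of the compared groups alone or without the variance trend, other fold thresholds, and leaving out each library. The counts of rises and falls of any size, and leaving LPS replicate 2 out of every comparison, were chosen after seeing the data. The members and the gene lists were chosen with earlier results of these data known. Values in every library are given for members called in any comparison and for the largest change of each role group in both MP comparisons, and for some others to show their spread. Related genes were to be named when called, up to 4 per list and comparison by adjusted p. This rule was not followed in full, and called genes that met it were left out, among them Lmbrd1, Slc17a5, Abcd4, Cln6 and Trim16. A few others, Tcirg1 among them, were chosen after their values were seen. Ap1g1 was left out because its symbol is duplicated.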

Additional observations from a re-analysis of the deposited data

Results flagged for a closer look

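For 7 members the change with MP in LPS-treated cells differed from that in cells without LPS, by limma's interaction test with Benjamini-Hochberg adjustment over all 11745 genes. The difference was -0.46 for Ctsl (adjusted p = 0.00675), -0.52 for Lipa (adjusted p = 0.00202), -0.55 for Ctsh (adjusted p = 0.0253) and -0.49 for Atp6ap2 (adjusted p = 0.0333). It was 0.55 for Gla (adjusted p = 0.00236), 0.47 for Npc2 (adjusted p = 0.0196) and 0.47 for Cd68 (adjusted p = 0.0253). All 7 stayed past the test without LPS replicate 2. Quantile normalization took Ctsh (-0.48, adjusted p = 0.0503) and Cd68 (0.37, adjusted p = 0.0687) out, and median-ratio scaling took Atp6ap2 out (-0.42, adjusted p = 0.0666). Ctsl, Lipa and Gla passed under every alternative run, and Atp6ap2 missed the test also without the variance trend (adjusted p = 0.0645). Single libraries mattered for the other 4. Npc2 missed the test without control replicate 1, MP replicate 1 or LPS+MP replicate 1 (adjusted p = 0.0524 to 0.0604). Ctsh missed it without control replicate 1 or 2, MP replicate 2 or 3, or LPS+MP replicate 2 or 3 (adjusted p = 0.0515 to 0.0711). Cd68 missed it without control replicate 3, MP replicate 2, or LPS+MP replicate 1 or 3 (adjusted p = 0.0521 to 0.0738). Atp6ap2 missed it without control replicate 1 or 2, MP replicate 3, or LPS+MP replicate 1 or 2 (adjusted p = 0.0656 to 0.086).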

How the results depend on the processing

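Called members (up and down) became, with no fold threshold, 13 and 10 with MP, 10 and 19 with LPS, 14 and 17 with LPS+MP against control, 9 and 4 against LPS, 9 and 19 against MP, and 7 for the interaction. With a fold threshold of 1.5 they were 2 and 1, 4 and 5, 6 and 8, 1 and 1, and 4 and 4 for these pairwise comparisons in the same order. The shares of all tested genes at a threshold of 1.5 were not counted, so whether these counts are many or few is unknown. Quantile normalization gave 1 up with MP and 2 up with LPS+MP against control, and turned the change of Ctsd in LPS+MP against MP to 0.0295 (adjusted p = 0.877). Median-ratio scaling gave 1 down with LPS, 3 up with LPS+MP against control and 2 up against MP. Of all tested genes 16.3%, 20.4% and 13.1% were called in these comparisons under that scaling, in either direction. Rises and falls of any size against MP became 14 and 9, and interaction rises 5. Of all tested genes 51.9% and 21.4% then passed the test in either direction. Fitting the compared groups alone gave 14 rises in LPS+MP against MP. The cause of these differences was not tested.

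Leaving out single libraries gave 0 to 1 called up and 0 to 0 down with MP, 1 to 1 and 1 to 2 with LPS, 1 to 2 and 2 to 4 with LPS+MP against control, 0 to 0 and 0 to 0 against LPS, 1 to 2 and 2 to 2 against MP, and 0 to 0 for the interaction. Rises ranged from 7 to 17 and falls from 6 to 13 with MP, 10 to 15 and 17 to 21 with LPS, 10 to 18 and 13 to 19 with LPS+MP against control, 7 to 14 and 4 to 7 against LPS, 8 to 13 and 14 to 21 against MP, and 1 to 5 and 2 to 7 for the interaction. Replicate numbers showed no clear pairing of the libraries. Over 18 same-numbered pairs the median correlation of deviations was 0.0178 (-0.247 to 0.158), and the best match of a library had its own number in 7 of 12 cases. With only 3 replicate numbers some such matches arise by chance, so this check cannot exclude a pairing. The replicate block moved no count by over 1.5 times, with 12 rises and 10 falls for MP and 9 rises and 5 falls for LPS+MP against LPS, and no called count changed. Over 131 single changes, alternatives left 1757 values on the same side, 182 weaker, 11 stronger and 1 reversed.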
